A study of Homo sapiens with 2 samples.

Results

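CXCL1, CXCL2, CXCL3, CXCL8, CCL2, CCL20, IL6, LIF, NFKBIA and TNFAIP3 are 10 of the 33538 genes counted in single UMUC3 cells, and were taken by their gene symbols as a set of neutrophil chemokines, related cytokines and NF-kB feedback inhibitors. Their levels in these same libraries were known when the set was put together, so the differences between the libraries given below describe the set and test nothing. UMUC3 is a human bladder carcinoma line. Its cells were placed in the bladders of C57 nude mice and taken out after 14 days, and the 2 groups were control UMUC3 and GANAB knockdown UMUC3, with 1 library each. GANAB encodes the catalytic subunit of glucosidase II, which trims glucose from new N-glycans in the endoplasmic reticulum. The labels do not give the knockdown method, the number of clones, or how many mice stood behind a library. Nude mice lack a thymus and hence mature T cells but keep neutrophils and macrophages. The counted transcripts are those assigned to human genes.

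NF-kB is a family of dimeric transcription factors that inhibitors of the IkB family hold in the cytoplasm. Cytokine and pathogen receptors lead to the breakdown of the inhibitor, and the freed dimers bind kB sites in the promoters of chemokine and cytokine genes. They also induce NFKBIA, which encodes IkB-alpha, and TNFAIP3, which encodes the ubiquitin-editing enzyme A20, and both proteins then damp the pathway. CXCL1, CXCL2, CXCL3 and CXCL8 are CXC chemokines with an ELR motif that draw neutrophils through CXCR1 and CXCR2. CCL2 draws monocytes through CCR2, CCL20 draws CCR6-bearing lymphocytes and dendritic cells, and IL6 and LIF signal through the shared receptor chain gp130 to STAT3. Carcinomas of the bladder are known sources of such chemokines.

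The 4 CXC chemokine genes lie in 1 cluster on chromosome 4 of GRCh38, with CXCL8 at chr4:73740506-73743716 and CXCL1 at chr4:73869393-73871242 on the plus strand, and CXCL3 at chr4:74036589-74038807 and CXCL2 at chr4:74097035-74099293 on the minus strand (GENCODE release 29). Promoter entries from RefSeq on GRCh38.p14 were matched by symbol for 8 of the 10 genes, with none for CCL2 and LIF. The 120 bases before the RefSeq start were searched on both strands for GGNNNTTCC, a loose form of the kB site chosen after the sequences had been seen. All 8 windows held at least 1 match, against 8.94% of 35116 promoters over the same length. A match describes letters and is not a measured binding site. The windows of CXCL1, CXCL3 and NFKBIA are shown whole, and 29 bases around the match are shown for CXCL2, CXCL8, CCL20 and IL6, because they let the chemokine promoters be compared with that of the feedback inhibitor. Capitals mark the kB matches, and each sequence reads 5′ to 3′ on the strand of its gene.
CXCL1, chr4:73869273-73869392, plus strand: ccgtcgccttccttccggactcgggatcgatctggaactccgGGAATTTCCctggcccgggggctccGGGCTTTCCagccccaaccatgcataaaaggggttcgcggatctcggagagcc
CXCL3, chr4:74038690-74038809, minus strand: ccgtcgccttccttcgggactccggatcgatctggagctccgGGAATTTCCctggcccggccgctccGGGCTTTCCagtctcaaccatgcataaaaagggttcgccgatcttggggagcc
NFKBIA, chr14:35404750-35404869, minus strand: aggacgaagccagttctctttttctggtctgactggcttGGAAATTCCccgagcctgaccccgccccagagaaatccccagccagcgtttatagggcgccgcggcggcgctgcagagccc
CXCL2, chr4:74099254-74099282, minus strand: tggagctccgGGAATTTCCctggcccggg
CXCL8, chr4:73740468-73740496, plus strand: tgcaaatcgtGGAATTTCCtctgacataa
CCL20, chr2:227813753-227813781, plus strand: tgatcaatggGGAAAACCCcatgtggcaa
IL6, chr7:22727118-22727146, plus strand: atcaaatgtgGGATTTTCCcatgagtctc

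CXCL1, CXCL2 and CXCL3 each held GGAATTTCC and, nearer the start, GGGCTTTCC. In CXCL1 and CXCL3 the first match lay 78 to 70 bases before the start and the second 53 to 45 bases before it. CXCL8 held the same GGAATTTCC at 91 to 83 bases. The windows of CXCL1 and CXCL2 were identical at 93.4% of aligned positions, those of CXCL1 and CXCL3 at 90.8%, and that of CXCL8 was identical to them at 43.6% to 44.1%. TNFAIP3 held 2 matches, both read on the opposite strand, at 67 to 59 and 55 to 47 bases. An AP-1 motif, TGANTCA, stood in 3.34% of all promoters over 120 bases and in none of these 8 windows. Over 250 bases it stood in 6.57% of all promoters and, of the 8, in CXCL8 alone.

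Barcodes with at least 15000 unique molecular identifiers (UMIs) and at most 20% mitochondrial UMIs were taken as cells, 4385 in the control library (median depth 44046 UMIs) and 2672 in the knockdown library (median depth 40933 UMIs). Levels are UMIs of a gene per 1000000 UMIs (CPM), summed over cells, and 95% intervals cover counting error only. No value has a replicate, so higher and lower compare these 2 libraries. GANAB was at 127 CPM (interval 125 to 128) in control cells and 42.3 (41.2 to 43.4) in knockdown cells, lower by 2.99-fold in the library labelled as the knockdown. The long noncoding RNA TMEM132D-AS1 divided the cells: 241 control cells (5.5%) and 1942 knockdown cells (72.7%) had at least 2 of its UMIs. These are called TMEM132D-AS1 cells here and the remaining 4144 and 730 the other cells. The split used all UMIs of a cell and so depends on depth. Median depth was 51552 UMIs in the control TMEM132D-AS1 cells and 43760 in the other control cells. In the knockdown library it was 41100 and 40430. GANAB was at 130.3 and 38.1 CPM in the TMEM132D-AS1 cells of control and knockdown, and at 126 and 54.0 in the other cells. The libraries shared 4 cell barcodes. Of 7 markers of the carcinoma line, 6 in control and 7 in knockdown cells reached 10 CPM, and of 7 fibroblast markers none did: DCN and LUM were at 0 in both libraries, and COL1A1, the most counted, was at 6.61 and 5.18 CPM.

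All 4 CXC chemokine genes stood higher in the knockdown library, in both sets of cells. CXCL1 was counted at 29.9 CPM (interval 27.1 to 33.0) in the control TMEM132D-AS1 cells and 31.6 (30.9 to 32.4) in the other control cells, against 118 (116 to 120.4) and 77.6 (74.7 to 80.6) in the same sets of the knockdown library. Over all cells its levels were 31.5 and 107.5 CPM, a log2 ratio of 1.77 (1.73 to 1.81) or 3.41-fold. The control sets thus overlapped in their intervals and both knockdown sets lay above them.

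Of the 4 CXC chemokines, CXCL2 differed most between the sets of control cells. It was at 66.3 CPM (62.1 to 70.8) in the control TMEM132D-AS1 cells and 36.7 (35.8 to 37.5) in the other control cells. In the knockdown library it was at 145 (142 to 147) and 98.7 (95.5 to 102). Over all cells the levels were 38.6 and 133 CPM, a log2 ratio of 1.78 (1.75 to 1.82), and within the TMEM132D-AS1 cells 1.13 (1.03 to 1.23). The smaller ratio within that set goes with the higher CXCL2 of its control cells.

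CXCL3, close to CXCL2 in the cluster, was at 51.9 CPM (48.2 to 55.9) and 52.6 (51.6 to 53.7) in the 2 control sets, TMEM132D-AS1 cells first. In the knockdown library it was at 154 (152 to 157) and 103 (99.8 to 107). CXCL3 had the highest count of the 4 in each library, at 52.6 and 141 CPM over all cells, with a log2 ratio of 1.42 (1.39 to 1.45). CXCL8, which encodes interleukin 8, had the lowest over all cells, 29.9 and 74.3 CPM, with a log2 ratio of 1.31 (1.27 to 1.36). By set it was at 33.0 (30.01 to 36.2) and 29.7 (28.9 to 30.4) in control and 81.9 (80.1 to 83.7) and 53.2 (50.8 to 55.7) in knockdown cells. The order of the 4 genes compares UMI counts of 3′ tags.

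**Figure D1:**
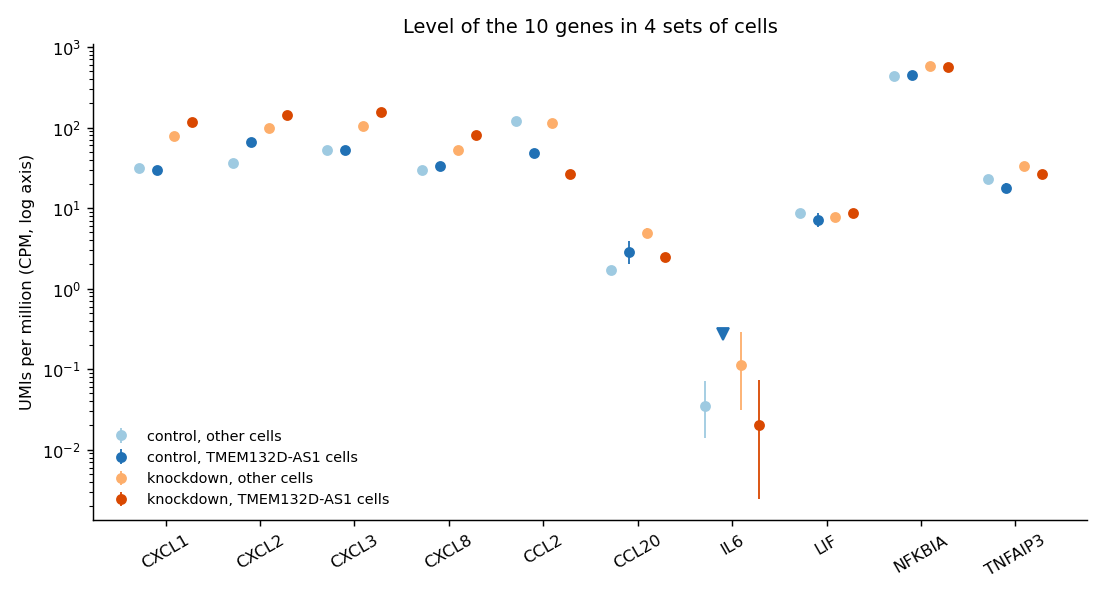
CPM on a log axis for each of the 10 genes in 4 sets of cells: control and knockdown, each split into cells with at least 2 TMEM132D-AS1 UMIs and other cells. Bars are exact Poisson 95% intervals, a triangle marks the upper bound of IL6 where no UMI was counted, and the 4 CXC chemokine genes have both knockdown points above both control points.

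CXCL1 and CXCL2 transcripts resemble each other near their 3′ ends, where the library tags come from. Of 451 windows of 50 bases in the last 500 bases of CXCL1, 46 (10.2%) occurred exactly in CXCL2 and 0 in CXCL3 or CXCL8. Reads from such stretches could be assigned to either gene or dropped, depending on the counting, and how the counts of CXCL1 and CXCL2 divide is uncertain to that extent. The neighbouring genes of the cluster gave few counts. CXCL6, another ELR chemokine, was counted at 3.29 CPM for the control and 3.82 for the knockdown, a log2 ratio of 0.22 (0.05 to 0.38). Within TMEM132D-AS1 cells it was at 1.39 CPM, from 19 UMIs, and 3.61, a log2 ratio of 1.38 (0.71 to 2.13). CXCL5 had 0 control and 5 knockdown UMIs, and PF4V1, PF4 and PPBP, which are platelet genes, had none. CXCL1, CXCL2, CXCL3 and CXCL8 thus held most of the counts of the cluster.

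CCL2 (chr17:34255218-34257203) went the other way over the whole libraries and was at 115 CPM (113.5 to 116) in control and 49.8 (48.6 to 51.0) in knockdown cells. Its log2 ratio was -1.21 (-1.25 to -1.17), lower by 2.31-fold. Its level also differed between the sets of cells: CCL2 was at 48.2 CPM (44.6 to 52.0) in TMEM132D-AS1 cells and 119.5 (118 to 121) in other cells of the control library. In the knockdown library it was at 26.7 (25.7 to 27.8) and 114 (111 to 118). Within TMEM132D-AS1 cells the knockdown level was lower by 1.8-fold, with a log2 ratio of -0.85 (-0.97 to -0.73), and in the other cells the log2 ratio was -0.06 (-0.11 to -0.02). The first of these falls under 1.5-fold, to a log2 ratio of -0.57, where 4 or more TMEM132D-AS1 UMIs are asked for. In cells with no MKI67 or TOP2A UMI, CCL2 was at 94.2 CPM among control and 13.7 among knockdown TMEM132D-AS1 cells, a log2 ratio of -2.78. The other cells without these UMIs were at 155 and 76.4 CPM, so there too the knockdown level was lower by more than 1.5-fold. Cells without MKI67 and TOP2A UMIs were picked on all UMIs of a cell, so this choice also depends on depth.

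A few cells carried much of the knockdown CCL2. The 8 other knockdown cells with most CCL2 held 43.1% of that set's CCL2 UMIs, counted after every cell was thinned at random to 15000 UMIs, and 1 of them had 187. Without the 1% of cells richest in CCL2 in each set, an alternative added after the data were seen, the other cells were at 96.0 CPM in control and 69.7 in knockdown, a log2 ratio of -0.46 (-0.52 to -0.40). The TMEM132D-AS1 cells were then at 35.1 and 11.6, lower by 3.03-fold in the knockdown. Over all cells the levels without them were 92.3 and 24.2 CPM, lower by 3.82-fold.

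CCL7, the next gene along chromosome 17 and another monocyte chemokine, nearly vanished from the knockdown counts. It had 1200 UMIs (5.60 CPM) in control and 22 UMIs (0.166 CPM) in knockdown cells, lower by 33.8-fold. In TMEM132D-AS1 cells it was at 4.02 and 0.174 CPM and in the other cells at 5.71 and 0.143. CCL7 was thus lower in both knockdown sets, while the summed CCL2 of the other cells differed by a log2 ratio of -0.06. CCL11 had 15 control UMIs and 1 knockdown UMI, and CCL8, CCL13 and CCL1 had at most 3 in either library.

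**Figure D2:**
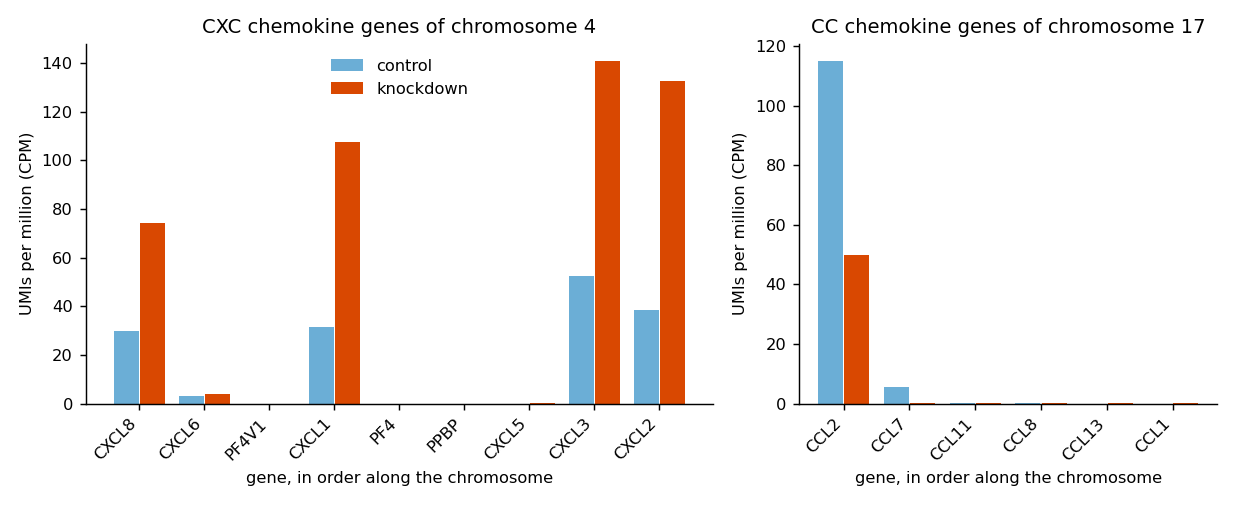
CPM over all called cells for the chemokine genes of the chromosome 4 cluster and of the CCL2 cluster of chromosome 17, in their order along each chromosome, control and knockdown side by side. CXCL8, CXCL1, CXCL3 and CXCL2 are higher in the knockdown library, CCL2 and CCL7 lower, and the remaining genes are near 0 in both.

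CCL20 (chr2:227805739-227817564) was scarce, with 385 UMIs (1.80 CPM, 1.62 to 1.99) in control and 412 UMIs (3.11 CPM, 2.81 to 3.42) in knockdown cells. In the TMEM132D-AS1 cells of control and knockdown it was at 2.85 (2.03 to 3.899) and 2.46 CPM (2.16 to 2.79), and in the other cells at 1.73 (1.55 to 1.92) and 4.91 (4.21 to 5.71). The 39 UMIs of the control TMEM132D-AS1 cells came almost wholly from few cells: after thinning, 2 of the 241 cells had any. LIF (chr22:30240447-30246851), a cytokine of the IL6 family, was at 8.68 CPM (8.29 to 9.08) in control and 8.36 (7.87 to 8.86) in knockdown cells. Its log2 ratio was -0.05 (-0.16 to 0.05), and the 4 sets spanned 7.09 to 8.79 CPM with overlapping intervals between control and knockdown TMEM132D-AS1 cells. IL6 (chr7:22725884-22732002) was almost uncounted, with 7 UMIs in control and 6 in knockdown cells. The 241 control TMEM132D-AS1 cells had 0 IL6 UMIs, where 3 UMIs would be 0.219 CPM, and the log2 ratio over all cells, 0.47, had an interval from -1.38 to 2.27. A difference in IL6 was not detectable at this depth.

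The feedback genes differed less than the CXC chemokines. NFKBIA (chr14:35401511-35404749) was the most counted of the 10 genes, at 439 CPM (436 to 442) in control and 565 (561 to 569) in knockdown cells. By set it was at 449.9 (439 to 461) in TMEM132D-AS1 cells and 438 (435 to 441) in other cells of the control, and at 560.2 (555.5 to 565) and 578 (570.5 to 586.5) in the knockdown. Its log2 ratio was 0.36 (0.35 to 0.38) over all cells, 0.32 within the TMEM132D-AS1 cells and 0.40 within the other cells. TNFAIP3 (chr6:137867188-137883312) was at 22.7 CPM (22.1 to 23.4) and 28.5 (27.6 to 29.4) over all cells, a log2 ratio of 0.33 (0.27 to 0.39). It was at 17.9 (15.8 to 20.3) and 26.6 (25.6 to 27.7) in the TMEM132D-AS1 cells of control and knockdown, and at 23.1 (22.4 to 23.7) and 33.7 (31.8 to 35.7) in the other cells. The log2 ratios of TNFAIP3 within these sets, 0.57 (0.38 to 0.77) and 0.55 (0.45 to 0.64), were larger than that over all cells. In both libraries TNFAIP3 was lower in the TMEM132D-AS1 cells, with log2 ratios of -0.36 (-0.55 to -0.18) and -0.34 (-0.44 to -0.24). In cells with no UMI of the proliferation genes MKI67 and TOP2A, a choice that depends on depth, both feedback genes turned over the whole libraries. The log2 ratios of knockdown over control were then -0.06 for NFKBIA and -0.08 for TNFAIP3. With each cell weighted equally, the ratios were 0.15 and 0.13. Within TMEM132D-AS1 cells neither gene turned: without MKI67 and TOP2A UMIs the log2 ratios were 0.40 for NFKBIA and 0.27 for TNFAIP3.

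A size rule was used to set these ratios against all genes: a gene had to reach 10 CPM in the higher group to count as measured, and a ratio of 1.5 or more to be called. Over the whole libraries 7 of the 10 genes reached 10 CPM, and of these CXCL1, CXCL2, CXCL3 and CXCL8 were called higher, CCL2 lower, and NFKBIA and TNFAIP3 neither. Of all 7872 genes measured in that comparison, 7.69% were higher and 10.4% lower. Within TMEM132D-AS1 cells the same 4 genes were higher and CCL2 lower, where 3.58% and 4.59% of 7720 genes were. TNFAIP3 came just under the rule there, at 1.49-fold, and passed it with the median ratio of genes set to 0, at a log2 ratio of 0.66. In the other cells the 4 were higher and none lower, where 7.85% and 8.57% of 7886 genes were. The median log2 ratio of the 7 genes was 1.31, 1.13 and 0.84 in the 3 comparisons, beside -0.07, -0.09 and -0.03 over all genes. The genes were chosen on these ratios, so their share of calls is no result about them.

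**Figure D3:**
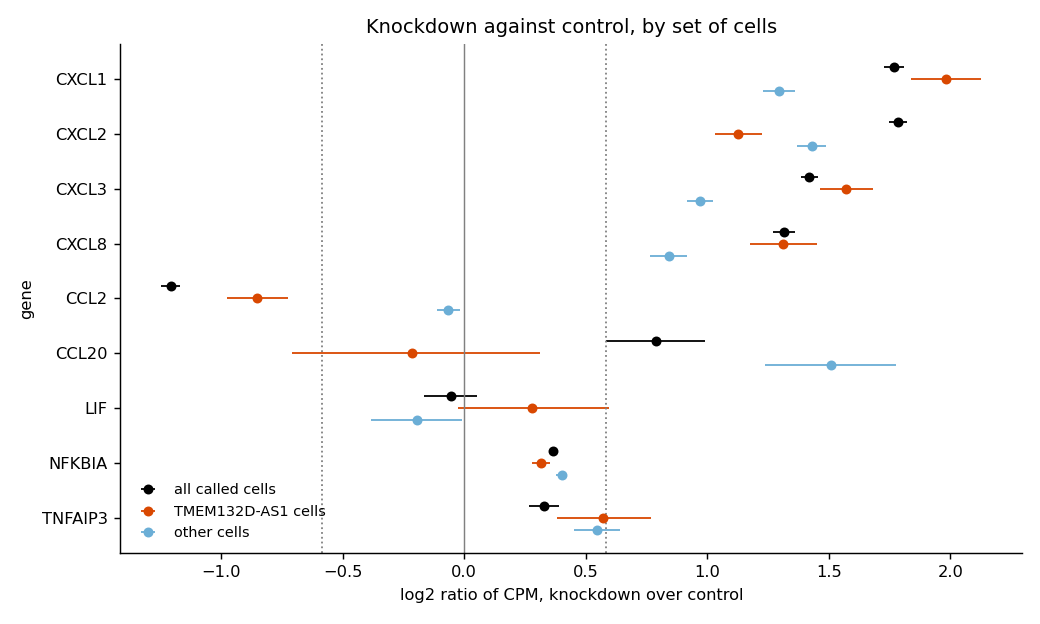
Log2 ratio of CPM, knockdown over control, for 9 of the 10 genes in all called cells, TMEM132D-AS1 cells and other cells, with exact conditional 95% intervals for counting error; dotted lines mark a ratio of 1.5 either way, and IL6, with 13 UMIs in all, is left out. The CXC chemokine genes lie right of the dotted line in every set, CCL2 lies left of it in all cells and in TMEM132D-AS1 cells and near 0 in other cells, and NFKBIA and TNFAIP3 lie between the lines.

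Comparing the sets of cells inside 1 library keeps the library fixed. In the control library, CXCL2 was higher in TMEM132D-AS1 cells by 1.81-fold and CCL2 lower by 2.48-fold, while CXCL1, CXCL3 and CXCL8 had log2 ratios of -0.08, -0.02 and 0.15. The background there was 4.58% of 7747 genes higher and 4.41% lower. In the knockdown library, CXCL1 (1.52-fold) and CXCL8 (1.54-fold) passed the size rule in TMEM132D-AS1 cells, CXCL2 (1.47-fold) and CXCL3 (log2 ratio 0.58) came just under it, and CCL2 was lower by 4.28-fold. There, 0.29% of 7593 genes were higher and 0.514% lower. The CXC calls of this last comparison sit near the threshold: without the 1% of cells with most CXC chemokine UMIs, 0 of the 4 passed. GANAB went the other way, at 38.1 CPM in the TMEM132D-AS1 cells and 54.0 in the other knockdown cells, a log2 ratio of -0.50. Its part in the CXC difference was not tested. The 241 control TMEM132D-AS1 cells limit the first comparison, and in the 74 of them with no MKI67 or TOP2A UMI, CXCL2 was at 48.5 CPM against 51.2 in the other control cells, a log2 ratio of -0.08. In those 74 cells CXCL1 was at 16.3 CPM and CXCL8 at 11.9, against 39.7 and 31.6 in the other control cells with neither UMI.

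Grouping knockdown cells by their few thinned GANAB UMIs did not order the CXC chemokines in 1 way. After thinning, 1505 knockdown cells had 0 GANAB UMIs, 807 had 1 and 360 had at least 2. By all their UMIs, GANAB was at 25.7, 50.7 and 87.4 CPM in these groups, so a thinned count of 0 does not mark its absence. Sampling of so few UMIs enters the grouping, and an effect of GANAB dose was not tested. CXCL1 was at 108, 113 and 95.8 CPM over these groups in turn, CXCL2 at 140.4, 132 and 106, and CXCL3 at 133, 154 and 142. CXCL8 was highest in the cells with most GANAB, at 73.0, 66.3 and 96.7 CPM, and CXCL2 lowest in them. CCL20 had the widest spread, at 1.32, 3.46 and 9.10 CPM, from 96, 142 and 174 UMIs, and its UMIs sat in few cells. CCL2 was at 34.8, 78.1 and 46.1. Control cells with 0, 1 and at least 2 GANAB UMIs gave CXCL8 at 27.5, 23.5 and 34.1 CPM and CXCL2 at 47.2, 41.3 and 34.3, the same order for these 2 genes. GANAB was at 74.0, 104 and 156 CPM in these control cells. Cells with high interferon-induced transcripts were also compared, since 427 knockdown and 41 control cells had at least 10 UMIs of IFIT1, IFIT2 and IFIT3. CXCL2 was at 176 CPM in these knockdown cells and 125 in the rest, NFKBIA at 718 and 536, and CXCL8 at 79.5 and 73.3. In the 41 control cells CXCL2 was at 145.5 CPM against 37.7 in the rest, NFKBIA at 577.5 against 438, and CXCL8, from 27 UMIs, at 15.4 against 29.99. CCL20 was at 7.47 CPM in the IFIT-rich knockdown cells and 2.28 in the rest, and without such cells in either library its log2 ratio of knockdown over control was 0.34 in place of 0.79. The ratios of the 4 CXC chemokines stayed above 1.5-fold without them.

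Each cell was thinned to 15000 UMIs to compare shares of cells at equal depth. At least 1 CXCL1 UMI was found in 16.1% of the control cells, with a Clopper-Pearson 95% interval from 15.02% to 17.2%. The share among knockdown cells was 32.5% (30.8% to 34.3%), and the unthinned shares were 26.2% and 44.0%. The thinned shares were 20.1% and 37.1% for CXCL2, 25.5% and 34.9% for CXCL3, and 11.4% and 16.99% for CXCL8. Cells with any of the 4 made up 45.8% of the control library (44.3% to 47.3%) and 56.6% of the knockdown library (54.7% to 58.5%). The wider gap lay in the upper range: at least 5 UMIs of the 4 together were found in 17.8% of TMEM132D-AS1 cells and 14.0% of other cells of the control, and in 31.2% and 26.7% of the same sets of the knockdown library. The highest control cell had 114 UMIs and the highest knockdown cell 437.

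CCL2 was found in fewer knockdown cells in both sets. Its thinned share was 20.3% (15.4% to 26.0%) of control and 6.80% (5.72% to 8.01%) of knockdown TMEM132D-AS1 cells. Among other cells it was 33.2% (31.8% to 34.7%) and 16.4% (13.8% to 19.3%), although the summed level there was 119.5 and 114 CPM. LIF was found in 10.1% and 10.7% of all cells, and IL6 in 2 control and 4 knockdown cells. NFKBIA was found in 74.6% (73.3% to 75.9%) of control and 70.4% (68.6% to 72.1%) of knockdown cells, against the order of its CPM. Its median thinned count was 3 UMIs in control and 2 in knockdown cells, while the upper 10% of cells began at 18 and 22. TNFAIP3 was found in 23.4% (22.1% to 24.7%) and 22.04% (20.5% to 23.7%), also against the order of its CPM but with overlapping intervals.

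**Figure D4:**
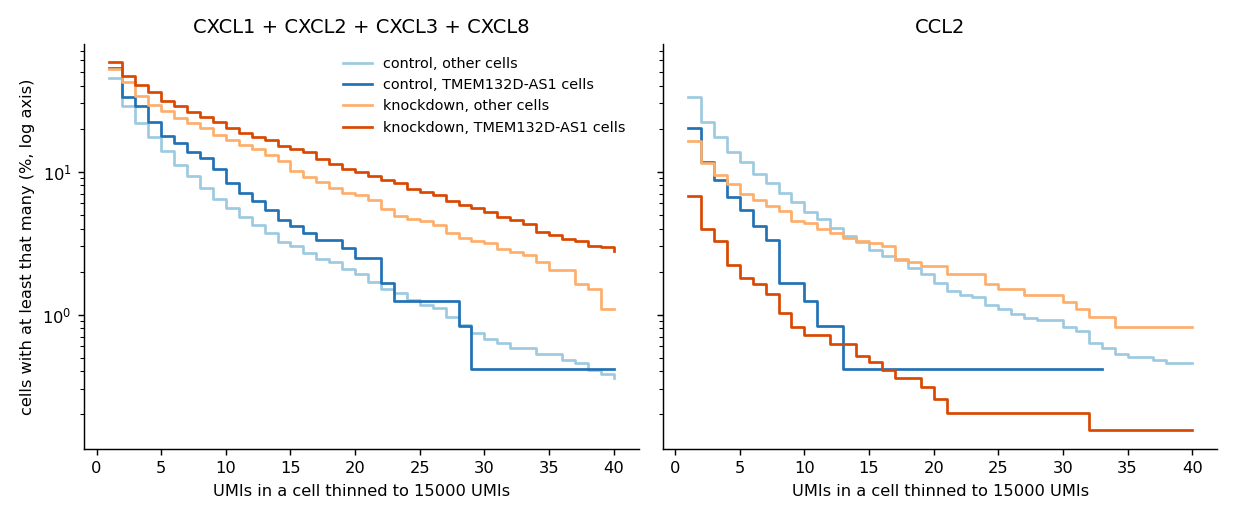
Share of cells, on a log axis, with at least the number of UMIs given on the x axis after thinning to 15000 UMIs, for the sum of CXCL1, CXCL2, CXCL3 and CXCL8 (left) and for CCL2 (right), in 4 sets of cells. The CXC curves of both knockdown sets lie above those of the control sets from 2 to 30 UMIs, and the CCL2 curve of knockdown TMEM132D-AS1 cells starts lowest, at 6.80%.

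The chemokine UMIs sat in few cells. The 1% of cells with most CXCL8 held 43.1% of its thinned UMIs among control and 36.4% among knockdown cells, and the 10% with most held 96.8% and 91.6%. For CXCL1, the upper 10% held 87.0% and 72.0%, and for CXCL2 82.0% and 62.6%. NFKBIA was spread more evenly, with 44.7% and 49.7% in the upper 10%. The variance of thinned counts over their mean, which is 1 for random sampling of an even level, was 12.1 and 29.7 for CXCL8 and 16.7 and 39.0 for CCL2. NFKBIA had 14.5 and 19.8. It was 1.24 and 1.17 for GANAB, 1.26 for LIF in the control library and 3.89 there for TMEM132D-AS1. The ratio was not computed for all genes. Without the 1% of cells of each set with most of the gene, CXCL1 was at 24.4 and 90.8 CPM, CXCL2 at 31.1 and 117, CXCL3 at 42.4 and 117, and CXCL8 at 17.9 and 50.4. Their folds were then 3.73, 3.77, 2.76 and 2.82.

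UMIs of the CXC chemokines and of NFKBIA were found in the same cells more than those of the CXC chemokines and CCL2 or LIF. Over the 2672 knockdown cells, Pearson's r of log2(thinned UMIs + 1) was 0.60 between CXCL2 and CXCL3, 0.61 between CXCL2 and NFKBIA and 0.49 between NFKBIA and TNFAIP3. Over the 4385 control cells the same pairs had 0.33, 0.35 and 0.40. With the 4 CXC chemokines, CCL2 had 0.11 to 0.17 among knockdown and 0.06 to 0.11 among control cells, and LIF had 0.09 to 0.12 and 0.04 to 0.06. CCL2 with NFKBIA had 0.21 and 0.20, above TNFAIP3 with CXCL1, CXCL3 and CXCL8 in the control library (0.18 to 0.19). The cells of a library share its preparation and were thinned to 1 depth, and r can be lower for scarcer genes, so r is not compared between libraries. Within TMEM132D-AS1 cells alone, CXCL2 with NFKBIA had 0.47 over 241 control and 0.64 over 1942 knockdown cells.

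**Figure D5:**
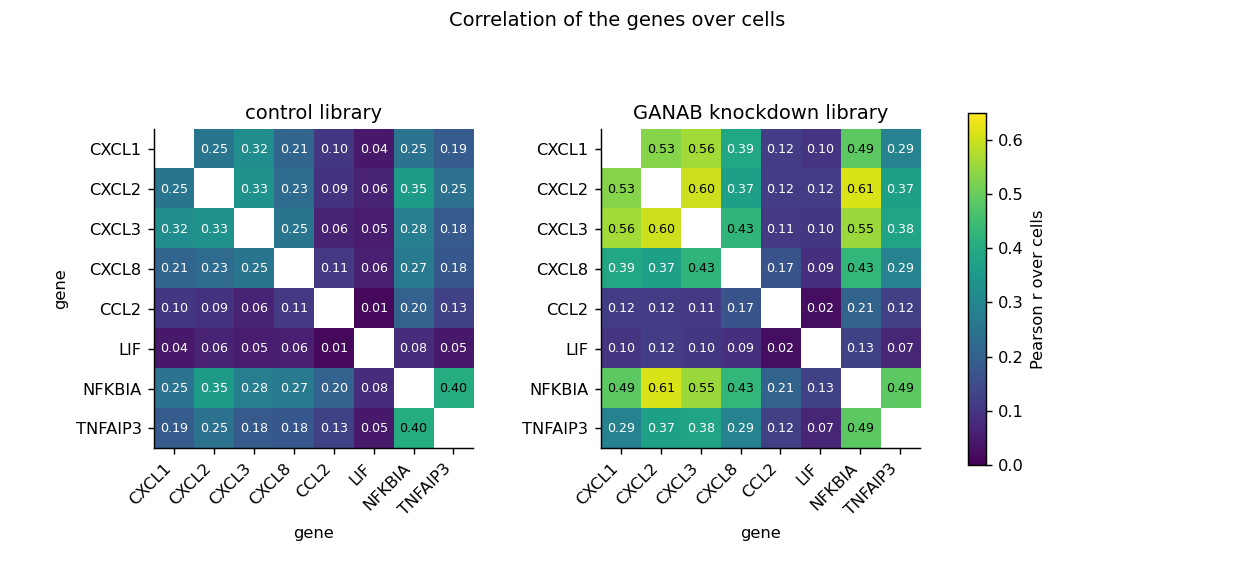
Pearson's r over cells between 8 of the genes, computed on log2(UMIs + 1) after thinning to 15000 UMIs, in the control library (left) and the knockdown library (right), with colour and printed number giving r. CXCL2 with NFKBIA (0.35 and 0.61) and NFKBIA with TNFAIP3 (0.40 and 0.49) are among the larger values in each library, and CCL2 with LIF (0.01 and 0.02) has the smallest.

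The 10% of cells with most CXC chemokine UMIs, with 6 or more among control and 18 or more among knockdown cells, were set beside the rest. NFKBIA was at 1013 CPM in these 439 control cells and 373 in the rest, and at 1693 and 422 in the 268 knockdown cells and the rest. TNFAIP3 was at 53.7 and 19.2 CPM among control cells and at 78.9 and 22.1 among knockdown cells. Both feedback genes were thus higher in chemokine-rich cells of each library, by more than they differed between the libraries. CCL20 was at 9.49 and 0.916 CPM among control cells and at 9.56 and 2.29 among knockdown cells. CCL2 was at 211 and 104, and 86.1 and 45.2. LIF was at 15.1 and 7.95, and 14.5 and 7.58. GANAB was slightly lower in chemokine-rich cells, at 119 against 127 and 38.6 against 42.8 CPM. TMEM132D-AS1 cells made up 7.74% of the chemokine-rich and 5.25% of the remaining control cells, and 79.5% and 71.9% of the knockdown cells.

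Among 6990 genes of at least 10 CPM in both libraries, 8 that are not of the set were ranked as most like the summed CXC chemokines by the lower r of the 2 libraries. BIRC3, an inhibitor of apoptosis and a known NF-kB target, led with r of 0.37 in control and 0.46 in knockdown cells. It was followed by DUSP1, a phosphatase of MAP kinases (0.31 and 0.49), and the immediate early gene IER3 (0.28 and 0.31). JUNB, an AP-1 subunit, had 0.28 and 0.49. The transcription factors KLF6 and CEBPB had 0.26 and 0.35, and 0.25 and 0.30. EREG, an EGF receptor ligand, had 0.24 and 0.27, and PHLDA1 0.23 and 0.37. Of the set itself, NFKBIA had 0.45 and 0.69, above all of these. TNFAIP3, with 0.29 and 0.41, was below BIRC3 and DUSP1 in both libraries, and CCL2, with 0.135 and 0.151, was below all 8. The levels of the 8 genes did not share a direction between the libraries: DUSP1 was at 479.9 CPM among control and 1122 among knockdown cells, whereas IER3 was at 118 and 62.8.

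The rest of the pathway was read from 9 lists, by the size rule and the median log2 ratio of measured genes. Against these stand 7.69% of all genes higher and 10.4% lower over the whole libraries, with a median of -0.07, and 3.58% and 4.59% within TMEM132D-AS1 cells, with a median of -0.09. Of the NF-kB and IkB family, 9 of 10 genes were measured over the whole libraries, none was higher and NFKBIZ, an atypical nuclear IkB, was lower at 13.9 and 6.96 CPM (control first, as in all pairs of this and the next paragraph). The median was -0.27. Within TMEM132D-AS1 cells 0 of 8 passed, and the precursor subunit gene NFKB2 was at 19.9 and 16.4 CPM, the coactivator BCL3 at 16.7 and 15.6, and RELB at 31.4 and 32.3. Of 15 receptors, adaptors and kinases upstream, 10 were measured and only MAP3K14, the kinase of the noncanonical pathway, passed, at 7.15 and 14.8 CPM. Within TMEM132D-AS1 cells MAP3K14 was at 13.7 and 14.1 and 0 of 10 passed. In these cells the adaptor TAB2 was at 37.5 and 47.1 CPM, the kinase IRAK1 at 89.5 and 63.3 and the TNF receptor TNFRSF1A at 59.6 and 61.8. Of 11 other feedback inhibitors, 10 were measured and 0 passed in either comparison; BIRC3 was at 162 and 204 CPM over all cells and at 196.5 and 199.6 in TMEM132D-AS1 cells. BIRC2, TNIP1 and OTUD7B had log2 ratios of 0.45, -0.42 and -0.40 over all cells. Genes under 10 CPM are outside these counts, and 3 upstream genes among them, named after their values had been seen, differed widely. The adaptor MYD88 had 548 UMIs among control and 11 among knockdown cells, lower by 30.9-fold. The receptors IL1R1 and TLR3 were higher by 3.87-fold and 3.19-fold, at 7.54 and 5.73 CPM in the knockdown. Within TMEM132D-AS1 cells MYD88 had 6 UMIs (0.439 CPM) in control and 5 UMIs (0.0512 CPM) in knockdown cells, lower by 8.57-fold. Its log2 ratio there was -3.1 (-5.15 to -1.125), from these few UMIs. In the same cells IL1R1 and TLR3 were higher by 1.62-fold and 1.88-fold.

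Of 15 other known NF-kB targets, 8 were measured over the whole libraries, and their median was -0.92. IRF1 was higher, and PLAU, BCL2A1, G0S2, IER3 and TNFAIP8 were lower. The urokinase gene PLAU was at 794 and 332 CPM, the survival factor BCL2A1 at 56.0 and 25.9, and G0S2 at 129 and 66.2. Within TMEM132D-AS1 cells 7 were measured, 0 were higher and 2 lower, BCL2A1 at 57.1 and 26.0 CPM and G0S2 at 61.9 and 25.6. The median was -0.30 in these cells and also in the other cells, where IRF1 (1.66-fold) and CD83 (1.51-fold) were higher, 4 genes were lower, and G0S2 was at 133.5 and 179.6 CPM. G0S2 also stood in a list of neutrophil markers, whose other 5 genes summed to under 2 CPM in each library. Of 10 AP-1 and immediate early genes, all were measured, and their median was 0.64. The size rule called 6 of them higher and EGR1 lower. FOS was at 233 and 566 CPM, FOSB at 36.5 and 66.1, and JUN at 836 and 658. Within TMEM132D-AS1 cells FOS and ATF3 were higher and EGR1 lower, FOS being at 354 and 570.0 CPM and DUSP1 at 879 and 1157. IRF1, CD83, TNFAIP8, ATF3 and EGR1 are named here after their values had been seen. Of 7 genes for decay and stability of AU-rich mRNAs, which chemokine transcripts are, 6 were measured. ZFP36 (tristetraprolin) was higher, at 52.0 and 98.3 CPM, and KHSRP lower, at 64.7 and 42.7. The related ZFP36L1 was at 506 and 680.4 CPM and ZFP36L2 at 57.4 and 84.2. Within TMEM132D-AS1 cells 0 of the 6 passed, with ZFP36 at 77.5 and 94.5 CPM.

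Of 7 genes for receptors of the set's products only IL6ST, which encodes gp130, reached 10 CPM, at 50.5 among control and 75.4 among knockdown cells and at 77.5 and 74.5 in their TMEM132D-AS1 cells. Of 8 genes of STAT3 signalling 5 were measured. SOCS3, a feedback inhibitor induced by STAT3, was higher at 8.85 and 24.3 CPM and within TMEM132D-AS1 cells at 13.2 and 25.4. STAT3 itself was at 60.2 and 86.0 CPM over all cells and at 81.6 and 82.8 within TMEM132D-AS1 cells. Of 15 other chemokines and cytokines, only CSF1, IL18 and IL32 were measured. IL18 was lower over the whole libraries, at 84.8 and 53.3 CPM, but was at 44.98 and 54.6 within TMEM132D-AS1 cells, where IL32 was higher at 11.2 and 29.3. CSF1 was at 16.8 and 20.2 CPM over all cells.

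Free RNA can place chemokine UMIs in cells that do not express them. In barcodes of 10 to 500 UMIs, which hold mostly free RNA, CXCL1 was at 39.95 CPM (35.5 to 44.8) for the control and 94.7 (87.1 to 103) for the knockdown, and CXCL2 at 56.7 (51.4 to 62.4) and 106 (98.1 to 115). CXCL8 was at 80.7 (74.4 to 87.5) and 70.9 (64.3 to 77.9), so its level there did not follow that of the control cells, 29.9. CCL2 was at 153 (144 to 162) and 46.0 (40.8 to 51.8), and NFKBIA at 389 and 485. IL6 was higher in this fraction than in cells, at 2.44 and 1.17 CPM against 0.033 and 0.045, from 18 and 7 UMIs. No cell type that should lack these genes was identified among the called cells, so no background share could be set beside the shares of cells. Markers of other cell types were few in called cells. These markers are human genes, so their low counts cannot show that mouse cells were absent. The summed level of 7 fibroblast markers was 15.04 CPM among control and 12.4 among knockdown cells, against 234 and 322 in free RNA, and 6 T and NK cell markers summed to 0.042 and 0.015. The 34 control cells with at least 5 UMIs of COL1A1, COL1A2 and COL3A1 had CXCL8 at 119 CPM against 29.1 in the rest, and CXCL2 at 143 against 37.6. The 26 such knockdown cells had CXCL8 at 164.5 against 73.4 and CXCL2 at 171 against 132. Without them CXCL1 was at 29.3 CPM among control and 118 among knockdown TMEM132D-AS1 cells.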

How the data were processed

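The authors deposited unfiltered UMI counts for every gene and barcode, made with Cell Ranger 3.1.0 against GRCh38, per the submitters' processing notes. The library kit was Chromium Single Cell 3′ v3, per the labels' protocols. All 33538 genes listed are human. The sources used here do not say if mouse sequence was in the reference, nor how strand and multimapping reads were handled, so mouse reads may have been counted as human or lost. All 6794880 barcodes were present, and cells were taken at 15000 UMIs and 20% mitochondrial UMIs. Doublets were neither called nor removed. The control library had 239857346 UMIs and the knockdown library 155064055, of which 214188781 and 132709954 lay in cells.

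Counts were summed over cells and divided by the total. Levels carry exact Poisson, ratios exact conditional binomial and shares Clopper-Pearson 95% intervals, all for counting error only; UMIs of a library are not replicates of a condition. With 1 library per group there was no test. A size rule (ratio of at least 1.5, at least 10 CPM in the higher group) and all genes as background took its place. The calling code was tested on simulated counts. Positions are from GENCODE release 29 and promoters from RefSeq. The scripts used Python 3.11.15, numpy 2.4.6, scipy 1.17.1, pandas 2.3.3 and matplotlib 3.10.9. The 10 genes, the 9 pathway lists, the 7 marker lists, the cell filter and the TMEM132D-AS1 limit were chosen with earlier results of these data known. Of each pathway list, up to 3 genes of at least 10 CPM by size of ratio and the gene of highest level were named, with JUNB, DUSP1 and others by their likeness over cells. CCL7, CCL11, CXCL6 and the other cluster genes were named for their position, after their values had been seen. Of the neutrophil, macrophage, endothelial and smooth muscle marker lists, at most 1 gene each reached 10 CPM in cells. Alternatives covered the cell filters, scaling, the size rule, the TMEM132D-AS1 limit and the removal of sets of cells. The values of 1 gene of the pathway lists are not reported here.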

Additional observations from a re-analysis of the deposited data

Results flagged for a closer look

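Barcodes outside the called cells, which the comparisons did not use, held a higher level of 4 of the 10 genes in the knockdown than in the control library, with intervals that did not overlap. In barcodes of 10 to 500 UMIs of the knockdown library, CXCL1 was at 94.7 CPM (control 39.95), CXCL2 at 106 (56.7), CXCL3 at 91.4 (55.4) and NFKBIA at 485 (389). Only higher levels were flagged. CCL2 was lower there, at 46.0 CPM (control 153), with intervals that did not overlap, and CXCL8 was at 70.9 (80.7). The share of all genes with such a difference was not computed, and these barcodes are of the same 2 libraries.

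TMEM132D-AS1 cells against other cells gave opposite signs in the 2 libraries for 2 genes, and the difference was not tested. CCL20 had a log2 ratio of 0.73 (0.21 to 1.20) in the control and -1.0 (-1.29 to -0.71) in the knockdown library, the former from 39 UMIs in the smaller set. NFKBIA had 0.038 (0.00075 to 0.076) and -0.046 (-0.070 to -0.023). Over 15 alternatives NFKBIA kept its sign in 12 for the control and 11 for the knockdown library, and CCL20 in 13 and 14. The share of all genes with opposite signs was not computed, and the intervals cover counting error only.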

How the results depend on the processing

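Over the whole libraries, the counts of 4 higher and 1 lower genes stayed within 1.5 times under every alternative run. The log2 ratios over 13 alternatives, of which the removal of the 1% of cells richest in a gene was added after the data were seen, ranged from 1.47 to 1.90 for CXCL1, 1.21 to 1.92 for CXCL2, 1.29 to 1.49 for CXCL3, 0.79 to 1.49 for CXCL8 and -2.37 (cells with no MKI67 or TOP2A UMI) to -1.14 for CCL2. Of 146 alternative counts of called genes, 124 were within 1.5 times and 22 were not. In TMEM132D-AS1 cells of knockdown against control, the count of lower genes was 0 at a fold of 2, at a minimum of 50 CPM and at 4 or more TMEM132D-AS1 UMIs, and 2 in cells with no MKI67 or TOP2A UMI. Between sets of control cells, the higher count was 0 at a fold of 2 and 2 at a minimum of 1 CPM, and the lower count 2 at a fold limit under 1.5 and 3 in cells with no MKI67 or TOP2A UMI, where CXCL2 reversed to a log2 ratio of -0.080. Between sets of knockdown cells, the higher count was 0 at 10% or fewer mitochondrial UMIs, at a fold of 2, without the 1% of cells with most CXC chemokines, with no MKI67 or TOP2A UMI and at 1 or more TMEM132D-AS1 UMIs after thinning (also added later). It was 1 with cells weighted equally, with thinned cells, at 1 or more or 4 or more TMEM132D-AS1 UMIs and without IFIT-rich cells, and 4 with the median ratio set to 0 or at the looser fold. The lower count was 2 at the looser fold and at a minimum of 1 CPM. The cause was not tested. No paired analysis was possible because each group has 1 library, and none could be left out. Library, mouse and knockdown cannot be told apart, and IL6 and CCL20 are limited by depth.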
